A study of Mus musculus with 2 samples.

Results

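The fibroblast growth factor (FGF) family was followed through a screen for siRNAs that let neural stem cells survive DNA damage. The members were 33 genes chosen by symbol, namely the FGF ligands, the FGF receptors, the klothos, the FRS adaptors and the FGF binding proteins. The rule itself uses no measured value, but the family was picked with earlier results of these data known, and it includes Fgf23, which the study had selected on these samples. Every probe set of the array that the annotation gives 1 of these symbols was taken, which gave 63 of 45037 probe sets and 32 of 18193 genes. Frs2, which encodes the main docking protein of the FGF receptors, was not analysed here, because no probe set carried its symbol alone in the annotation used.

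ANSO4E, a mouse neural stem cell line, was infected with a genome-wide lentiviral siRNA library and then either left untreated (reference control) or exposed to 500 µM MNNG for 15 min (MNNG survivors), with a second treatment before the survivors were harvested. MNNG damages DNA by transferring methyl groups to its bases. Per the labels, the line came from a transgenic animal, made from oocytes of C57BL/6JxSJL/JF1 background and BDF1 sperm, and the transgene is not named there. Cells of both conditions carried the library and were grown with 20 ng/ml of b-FGF, the product of the Fgf2 gene, and 20 ng/ml of EGF. The siRNA inserts recovered from each condition were labeled with biotin and hybridized to 1 Affymetrix mouse array. With 1 array per condition there is no replicate check, no spread between replicates and no p-value for any difference given here, and everything rests on a single cell line.

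FGFs are signaling proteins that act through receptor tyrosine kinases at the cell surface, mostly with heparan sulfate as a cofactor. The endocrine members, FGF15, FGF21 and FGF23, bind heparan sulfate weakly and signal through receptors paired with a klotho protein, whereas FGF11 to FGF14 are not secreted and act inside cells, for example on sodium channels. In neural stem cell cultures, FGF2 and EGF are the usual mitogens that keep the cells dividing. The signals in this screen do not measure expression of these genes. A labeled insert was read through the probes its siRNA sequence matches, so a higher signal is taken here as a greater abundance of inserts against that gene, and more cells with an insert and more insert per cell cannot be told apart. Whether an insert matching only part of a probe set gives a full reading was not tested.

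Values are log2 signals as deposited, and differences are survivors minus reference control. The distributions were not equal on the arrays, with 4.11 and 2.68 as the 99th percentiles of the control and survivor arrays. The median difference of all probe sets was 0.00. Each of the 18 control probe sets for hybridization, which read foreign sequences spiked in at set amounts, gave more signal on the survivor array, by 2.77 at the median. Centering on these controls lowers every difference by that amount and makes all 63 member probe sets lower in the survivors, so each direction below holds relative to the median of all probe sets.

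Inserts against the FGF family showed no common direction. Of the 63 probe sets, 25 had more signal after selection, 19 had less and 19 had the same, and the median difference was 0.00. Over all probe sets 44.2% were higher, 36.4% lower and 19.4% equal, where equal means within 0.0001. A difference of over 1 was found upward for 3 member probe sets (4.76%), beside 3.75% of all probe sets, and downward for 3 (4.76%), beside 3.93% of all probe sets. Both shares were near the background. The 3 upward were those of Fgf23, Fgfbp1 and 1 of 3 probe sets of Fgfr2, and the 3 downward were 2 of 4 probe sets of Fgf4 and 1 of 2 of Fgf9. With each gene at its probe set of highest mean signal, 10 genes were higher, 12 lower and 10 equal, against 43.5%, 38.1% and 18.4% of all genes.

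**Figure D1:**
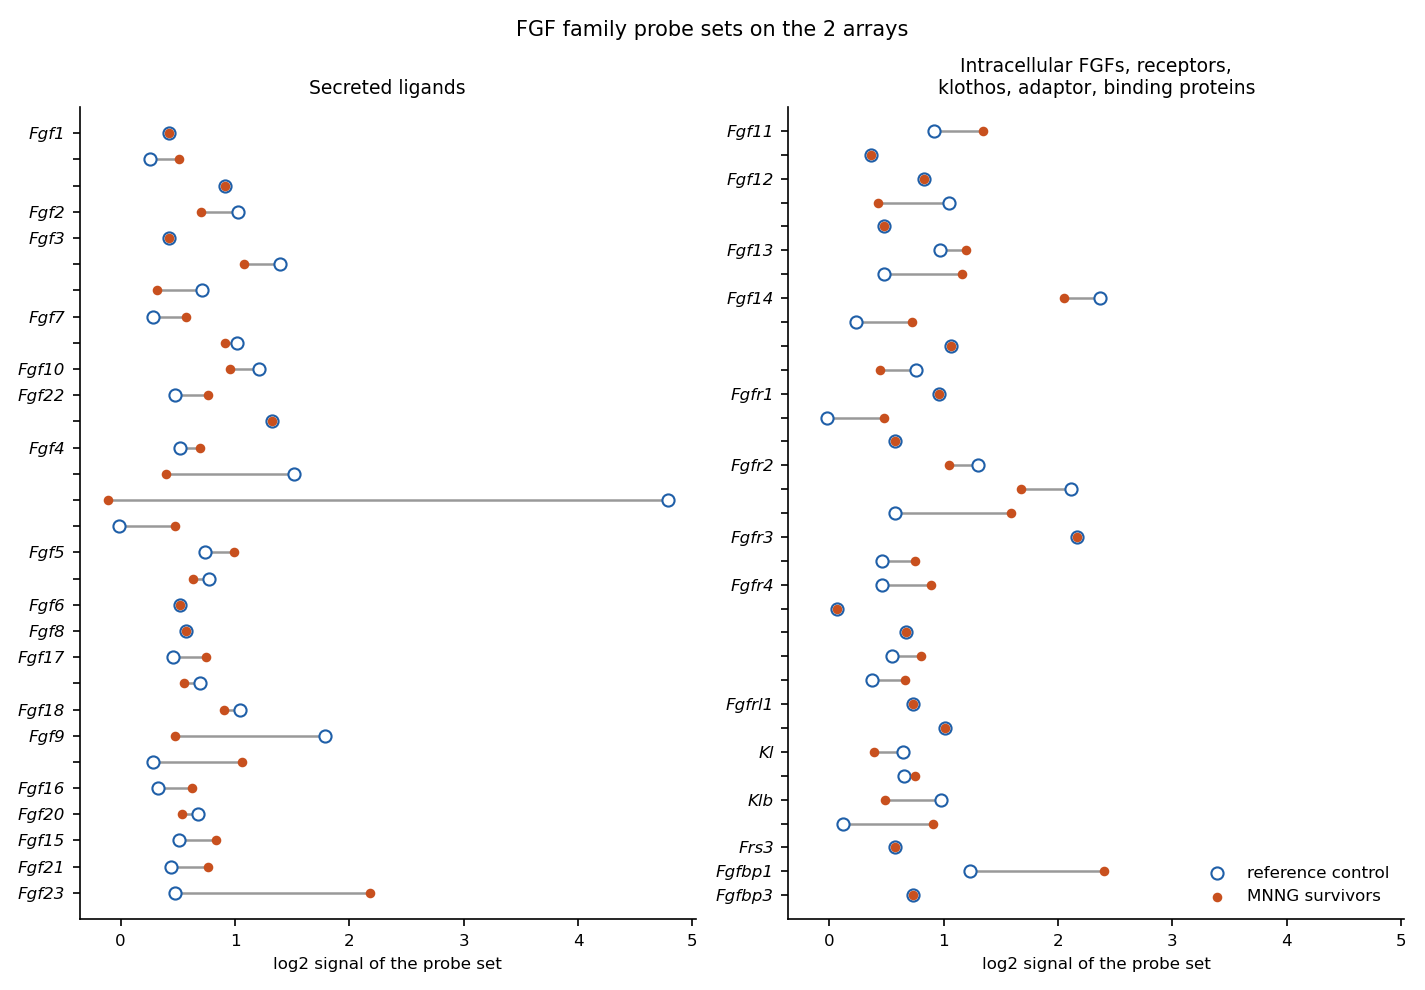
Log2 signal (horizontal axis) of each of the 63 probe sets of the FGF family, 1 row per probe set with the gene named at its first row; open blue circles are the reference control, orange points the MNNG survivors, and grey lines join the same probe set. Most pairs lie close together or coincide, while 1 probe set of Fgf4 runs from 4.78 to -0.11 and that of Fgf23 from 0.47 to 2.18.

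Most member signals were low on both arrays. Over the family, log2 signals ran from -0.02 to 4.78 in the reference control and from -0.11 to 2.40 in the survivors. A log2 signal above 2 on either array was found for 6 member probe sets (9.52%), beside 5.50% of all probe sets. They were those of Fgf4, Fgf14, Fgfr2, Fgfr3, Fgf23 and Fgfbp1. Those of Fgf14 and Fgfr3 had it on both arrays, as did 1.32% of all probe sets. None of the 63 reached a linear signal of 1000 on either array. The study required signals above 1000 for the genes it selected, Fgf23 among them. Whether the deposited signals are on the scale used for that selection was not tested. At such low signals, a large part of the differences described next separates values of a few linear units.

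Fgf23, the hormone from bone that lowers blood phosphate, had the highest difference of the family. Its single probe set, 1422176_at, had a log2 signal of 0.47 on the control array and 2.18 on the survivor array, a difference of 1.71. On the linear scale these are signals of 1.39 and 4.53. The study had chosen Fgf23 on these samples, so its direction here is not independent evidence. A difference of this size or more was held by 236 of 45037 probe sets (0.524%). Among the 20086 probe sets whose reference signal lay within 0.25 of that of Fgf23, 79 (0.393%) had such a difference. With 1 probe set, there is no second reading of Fgf23 on the array.

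The other endocrine FGFs had smaller differences than Fgf23. Fgf15, the mouse counterpart of human FGF19 and an intestinal regulator of bile acid synthesis, had 0.51 on the control array and 0.84 on the survivor array. Fgf21, a metabolic hormone of liver and fat, had 0.44 and 0.77. Both differences were 0.33, so all 3 endocrine ligands were higher in the survivors, beside 44.2% of all probe sets. However, 522 probe sets of the array shared the difference of Fgf15 and Fgf21. The difference of Fgf23 exceeded theirs by more than 1 on the log2 scale, and with 1 array per condition this gap could not be tested.

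Klothos, the co-receptors that endocrine FGFs need, gave no common direction. Kl, the partner of FGF23, had 0.64 and 0.39 at 1 probe set and 0.65 and 0.75 at the other, differences of -0.25 and 0.10. Klb, the partner of FGF15 and FGF21, had 0.98 and 0.48 at 1 probe set and 0.12 and 0.91 at the other, differences of -0.49 and 0.78. For each klotho the probe sets thus had opposite signs. None of the 4 differed by over 1.

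Fgf4, which is active in the early embryo, held the lowest difference of the family. At 1449729_at the log2 signal was 4.78 on the control array and -0.11 on the survivor array, which is -4.89 apart, or 27.5 and 0.925 in linear units. At 1420086_x_at it was 1.52 and 0.40, a difference of -1.12, while 1420085_at and 1450282_at were higher in the survivors by 0.18 and 0.48. The low and high readings came from the same gene. The annotation gives the same sequence record for 3 of these 4 probe sets, the 2 that were lower and 1420085_at. Of 92 probe sets with a reference signal within 0.25 of the bright Fgf4 probe set, 61 (66.3%) were also lower in the survivors by more than 2.5, against 1.01% of all probe sets, and 32 (34.8%) had a survivor signal below 1. At this reference signal, a loss of more than 2.5 was thus the more common outcome. A difference as low as that of Fgf4 or lower was held by 182 of 45037 probe sets (0.404%). Its share at this reference signal was not counted.

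The relatives of Fgf4 differed little. Fgf5, which controls the hair cycle, was higher by 0.25 at 1 probe set and lower at the other, from 0.77 to 0.64. Fgf6, a ligand of skeletal muscle, had 0.52 on both arrays. Neither differed by over 1.

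Fgf9 was lower at 1 probe set and higher at the other. This ligand of gonad and lung development is also made by neurons. At 1420795_at it had 1.78 on the control array and 0.48 on the survivor array, a difference of -1.31, and at 1438718_at it had 0.28 and 1.07, a difference of 0.78. The arrays thus gave no single direction for Fgf9. Of its relatives, Fgf16, a ligand of the heart, had 0.33 and 0.62, and Fgf20, a ligand of inner ear development, had 0.67 and 0.53. Among 1964 probe sets with a reference signal within 0.25 of the lower Fgf9 probe set, 135 (6.87%) had a difference as low or lower.

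**Figure D2:**
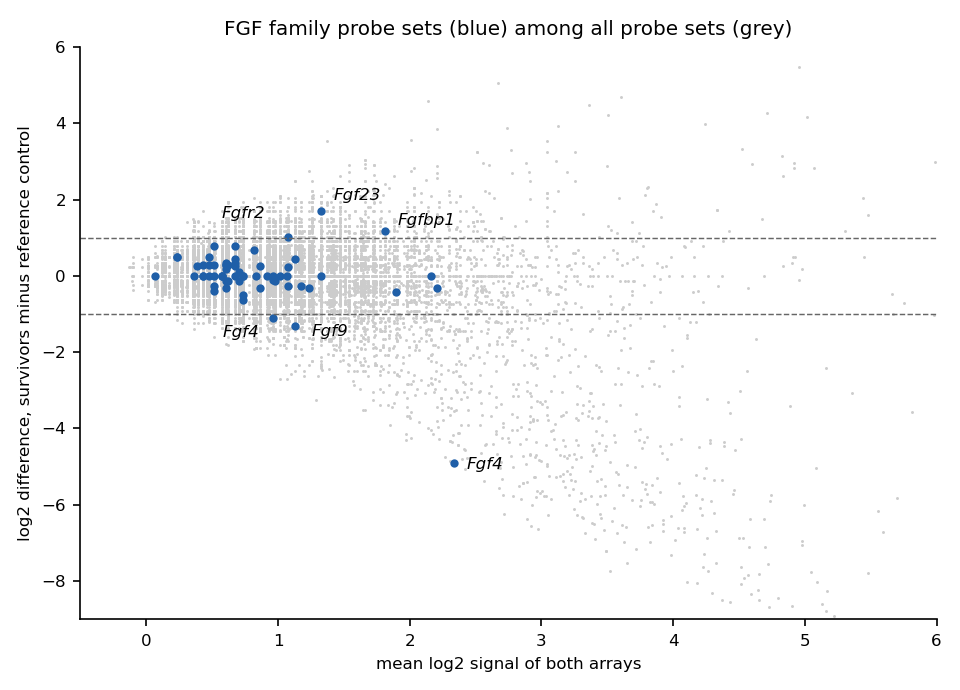
Vertical axis, log2 difference (survivors minus reference control), and horizontal axis, log2 signal averaged over the arrays, for all probe sets in grey and the 63 of the FGF family in blue, with those past a difference of 1 (dashed lines) named and 33 bright or extreme probe sets outside the axes. Fgf23, Fgfbp1 and Fgfr2 lie above the upper line, and Fgf9 and 2 probe sets of Fgf4 below the lower one.

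Fgf2, which encodes the growth factor supplied in the medium of both cultures, had 1.02 on the control array and 0.71 on the survivor array, a difference of -0.32. Fgf1, its acidic relative that binds all FGF receptors, was equal at 2 of 3 probe sets, with 0.43 and 0.92 on each array, and had 0.26 and 0.51 at the third. Neither ligand differed by over 1 at any probe set.

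The Fgf7 group signals between epithelium and mesenchyme, and none of its 8 probe sets differed by over 1. Fgf10, the limb and lung inducer, had 1.21 and 0.95. Fgf7, the keratinocyte growth factor, was higher by 0.29 at 1 probe set and lower at the other, from 1.02 to 0.91. Fgf3, an inner ear inducer, had equal values at 1 of 3 probe sets and was lower at the others, from 1.40 to 1.08 and from 0.71 to 0.32, and Fgf22, a synaptic organizer, was equal at 1 and higher by 0.29 at the other. In the Fgf8 group, which patterns the midbrain and limb, Fgf8 had 0.57 on both arrays, Fgf18, a ligand of bone and lung, had 1.05 and 0.91, and Fgf17 had differences of 0.29 and -0.14. All 4 differences of this group lay within 0.5 of 0.

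The intracellular FGFs, which modulate sodium channels in neurons, held 11 probe sets. Of these, 4 were higher (36.4%), 3 lower (27.3%) and 4 equal (36.4%), beside 44.2%, 36.4% and 19.4% of all probe sets. Fgf13 was higher at both of its probe sets, from 0.96 to 1.19 and from 0.48 to 1.16. Fgf12 was equal at 2 and lower at the third, from 1.05 to 0.43. Fgf14 had 2.37 and 2.05 at 1 probe set, and its 4 differences ran from -0.32 to 0.49. Fgf11 was equal at 1 probe set and had 0.91 and 1.35 at the other. The differences of the group ran from -0.62 to 0.68, so none exceeded 1.

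Of the 15 probe sets for receptors, 6 were higher (40.0%), 2 lower (13.3%) and 7 equal (46.7%), beside 44.2%, 36.4% and 19.4% of all probe sets. Fgfr2 had both signs. At 1443211_at it had 0.57 on the control array and 1.59 on the survivor array, a difference of 1.01, whereas its other probe sets had 2.11 and 1.68, and 1.30 and 1.05. The higher reading of Fgfr2 thus came from 1 of 3 probe sets. Fgfr1, a receptor used by neural progenitors, was equal at 2 of 3 probe sets and had -0.02 and 0.48 at the third. Fgfr3, a restraint on bone growth, had 2.16 on both arrays at 1 probe set and a difference of 0.29 at the other. Fgfr4, the main liver receptor, was equal at 2 of 5 probe sets and higher by at most 0.43 at the rest. Fgfrl1, a receptor without a kinase domain, was equal on the arrays at both probe sets.

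The adaptor and the binding proteins were read by 1 probe set each. Frs3, a docking protein that links receptors to the RAS and MAP kinase cascade, had 0.57 on both arrays. Fgfbp1, a secreted carrier that releases FGFs from the matrix, had 1.23 on the control array and 2.40 on the survivor array, a difference of 1.18, or 2.34 and 5.29 in linear units. Fgfbp3 had 0.73 on both arrays. Fgfbp1 was the second highest of the family after Fgf23. Among the 8288 probe sets with a reference signal within 0.25 of its own, 112 (1.35%) had a difference of this size or more.

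Within the family, probe sets of the same gene could differ in sign. Of 19 members with more than 1 probe set, 9 had differences of both signs, namely Fgf4, Fgf5, Fgf7, Fgf9, Fgf14, Fgf17, Fgfr2, Kl and Klb. The range of differences within a gene was 0.43 at the median, and it reached 5.38 for Fgf4, 2.09 for Fgf9, 1.44 for Fgfr2 and 1.28 for Klb. Neither figure was computed over all genes with more than 1 probe set, so neither can be called particular to the family. The other 13 members, Fgf23 and Fgfbp1 among them, were read once.

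The differences also fell on a small set of recurring values. Rounded to 4 decimals, the 45037 probe sets held 894 distinct differences, and 91.3% of them sat at a difference held by at least 100 probe sets. In the family, 57 of 63 probe sets (90.5%) sat at such a difference. The value of 0.29 of Fgf16, Fgf17, Fgf22, Fgf7, Fgfr3 and Fgfr4 was shared by 2317 probe sets of the array, and the value of -0.14 of Fgf5, Fgf17, Fgf18 and Fgf20 by 2316. Even the differences of Fgfbp1 and Fgfr2 past 1 were held by 285 and 287. Signals recurred too, and those of Fgfr2 at 1443211_at were held by 1461 probe sets on the control array and 446 on the survivor array. The difference of Fgf23 was held by 12 probe sets, that of Fgf9 at 1420795_at by 17, and that of Fgf4 at 1449729_at by no other. The source of the recurring values was not tested.

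**Figure D3:**
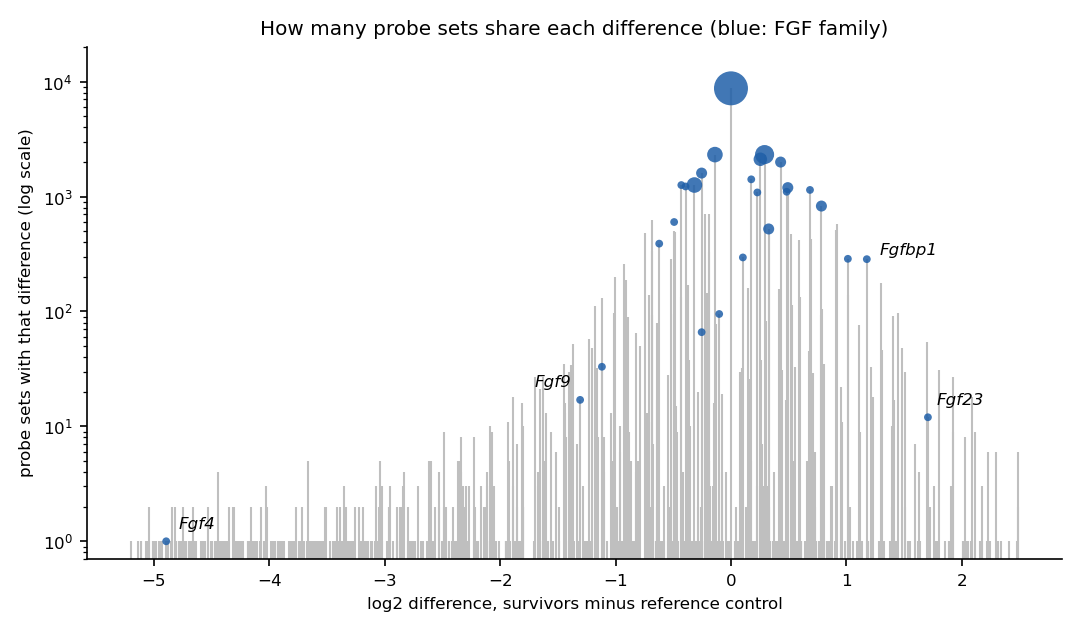
Number of probe sets on a log scale (vertical axis) that share each log2 difference, survivors minus reference control (horizontal axis, from -5.2 to 2.5, rounded to 4 decimals), as grey lines; blue points are differences held by the FGF family, with an area that grows with the number of family probe sets. Most blue points stand on lines of many probe sets, up to 8737 at a difference of 0.00, and the difference of Fgf4 at -4.89 is held by 1.

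The other scalings kept the order of the 6 differences past 1, and their signs except where the arrays were centered on the hybridization controls. Fgf23 had a difference of 1.66 after median centering, 1.90 after quantile normalization and 1.65 after loess, and -1.06 after centering on the controls. Fgf4 at 1449729_at lay between -4.95 and -3.97 under the first 3. Median centering and centering on the controls shift all differences by the same amount. They could change neither the order nor the place of Fgf23 relative to the median of all probe sets. Quantile normalization, loess and the floor could have changed both, and under them Fgf23 remained above that median.

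**Figure D4:**
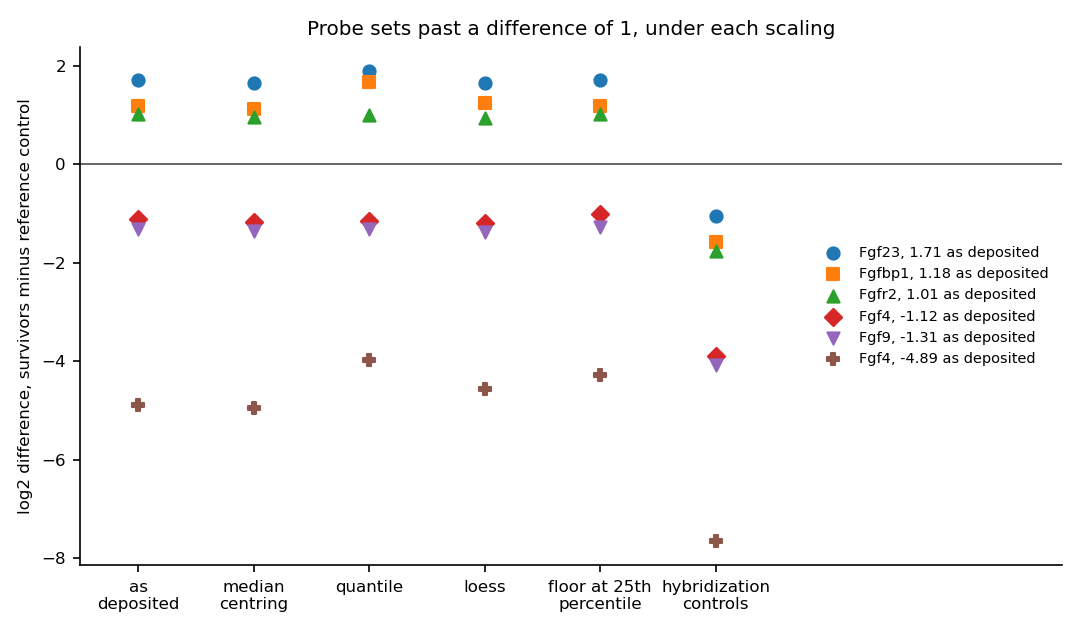
Log2 difference, survivors minus reference control (vertical axis), of the 6 FGF family probe sets past a difference of 1, as deposited and under 5 other treatments of the signals (horizontal axis). Signs are the same in the first 5 columns, and centering on the hybridization controls puts all 6 below 0.

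The genes around the family were read from lists of known pathway members, each gene at its probe set of highest mean signal. Of all genes read this way, 43.5% were higher at all, 38.1% lower at all and 18.4% equal. By over 1, 4.78% were higher and 5.45% lower. Of 18 measured heparan sulfate cofactors and enzymes, 8 were higher, 3 lower and 7 equal, with a median difference of 0.00, and 2 were higher by over 1. These were the glypicans Gpc2, with 0.57 and 2.37, and Gpc3, with 0.57 and 1.59. Both are membrane-anchored heparan sulfate proteoglycans with 1 probe set each. The difference of Gpc2 was held by 31 probe sets of the array. That of Gpc3, whose signals equal those of Fgfr2 at 1443211_at, was held by 287. Sulf2, which removes sulfate from heparan chains, had 0.52 and 1.43, with differences from 0.00 to 0.91 over 3 probe sets. Sdc2, a syndecan, had 0.43 and 1.21 but differences from -0.91 to 0.92 over 4 probe sets.

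Of the relay that carries the receptor signal through RAS, MAP kinase and PI3 kinase, 16 of 22 genes were measured, with 10 higher, 5 lower and 1 equal and a median of 0.24. Sos1, an exchange factor that activates RAS, had 2.19 and 0.76, and its 5 probe sets differed by -1.43 to 0.59. Pik3r1, the regulatory subunit of PI3 kinase, had 0.61 and 1.91, and its 4 probe sets differed by -0.25 to 1.30. Pik3ca, its catalytic partner, had 3.20 and 2.58, and the kinase Braf had 1.89 and 2.39. For these 4 genes the probe sets had both signs. Of 15 measured feedback inhibitors and target genes of FGF signaling, 9 were higher, 3 lower and 3 equal, with a median of 0.23, and 0 differed by over 1. Spry2, an inhibitor induced by FGF, had 0.96 and 1.88, and its 2 probe sets differed by -0.23 and 0.92. Spred2, an inhibitor of RAF activation, had 0.87 and 1.78, with differences from 0.00 to 0.91 over 5 probe sets. Spry4, a relative of Spry2, had 1.07 and 1.59, with differences from 0.00 to 0.52 over 4. Flrt3, a membrane protein that binds FGF receptors, had 0.57 and 1.07, and its 2 probe sets differed by -0.39 and 0.49.

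Of 14 genes of phosphate and vitamin D metabolism, through which FGF23 acts or is controlled, 10 were higher, 2 lower and 2 equal, with a median of 0.34. Phex, the bone peptidase whose loss raises FGF23, had 1.45 and 0.28, a difference of -1.18, and was lower at its other probe set too, by 0.92. Dmp1, a bone matrix protein, had 1.02 and 1.93, with differences from 0.18 to 0.91 over 3 probe sets. Cyp24a1, which degrades active vitamin D, had 1.03 and 1.81, and its 2 probe sets differed by 0.00 and 0.78. Pth, parathyroid hormone, had 0.38 and 1.08. Phex was the only gene of this list past a difference of 1.

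For the other mitogen of the medium, 14 of 15 genes of the EGF family and its receptors were measured, with 9 higher, 5 lower and a median difference of 0.36. Hbegf, a heparin-binding ligand, had 0.16 and 1.57, a difference of 1.41, and was higher by 0.43 at its other probe set. Erbb2, a co-receptor, had 0.92 and 0.23, and Epgn, an epithelial ligand, had 0.48 and 1.16. Nrg3, a neuregulin of the brain, had 0.56 and 1.08, and was higher by 0.25 at its other probe set. Only Hbegf of this list differed by over 1. Each of the 5 lists held more genes that were higher than lower, as did all genes, with 43.5% higher and 38.1% lower. The medians of the lists ran from 0.00 to 0.36, beside 0.00 for the FGF family and for all genes. With the probe set of lowest mean signal per gene, the median of the FGF family was 0.27. The lists were read only at the probe set of highest mean signal.

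**Figure D5:**
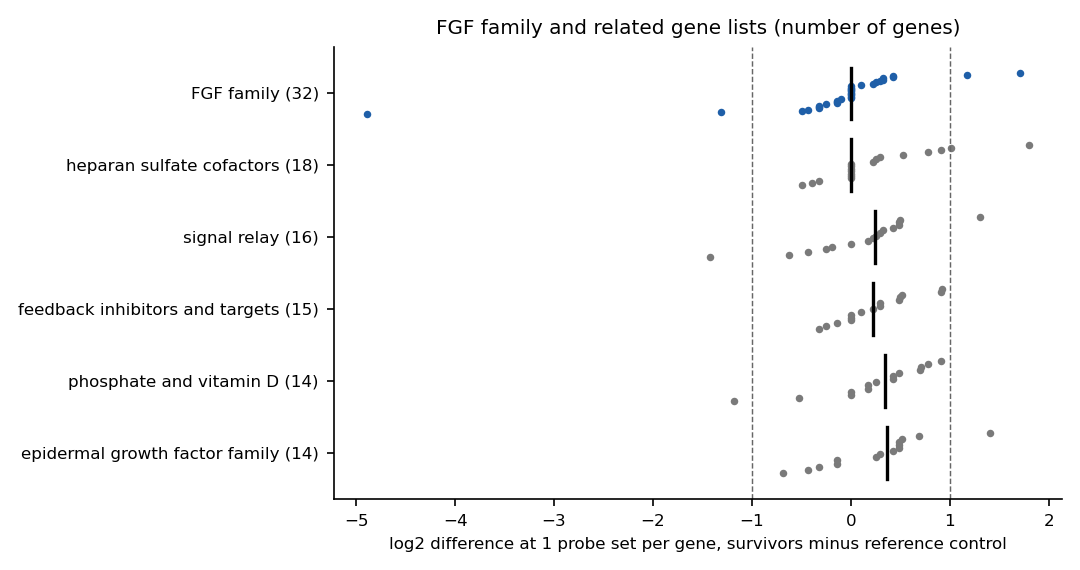
Log2 difference, survivors minus reference control (horizontal axis), of each gene at 1 probe set, for the 32 measured genes of the FGF family in blue and 5 related lists in grey, with the number of genes in brackets, black bars at the medians and dashed lines at -1 and 1. The medians lie between 0.00 and 0.36, and the points of Fgf4 at -4.89 and Fgf9 at -1.31 lie to the left in the top row.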

How the data were processed

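Values deposited by the authors are log2 signals, 1 for each probe set and array. The submitters' processing notes name RMA (background correction, quantile normalization of probes, summary per probe set), with the software not given in the sources used here. Per the labels, the starting material was genomic DNA, and per the paper total RNA. After 64 Affymetrix control probe sets were set aside, 45037 remained, of which 34945 carried 1 gene symbol, 932 several and 9160 none. Symbols were updated by gene ID for 34741 from GRCm38.p6 (names only). For gene counts, the probe set with the highest mean signal stood for the gene. Members and lists were chosen with earlier results of these data known. All members could be named, and up to 4 genes with the largest difference of each related list, marker lists of neural stem cells, neurons, oligodendrocytes and microglia included. No test was possible with 1 array per condition, so that number limits the precision. Alternatives were median centering, quantile normalization, loess (fraction 0.3), a floor at the 25th percentile, centering on the hybridization controls, leaving out probe sets ending in _x_at or _s_at, thresholds of 0.5 and 2, and other probe sets per gene. The deposited scale, median centering, quantile normalization and loess were also run on simulated data, with random noise and changes of at least 2. Those data lacked the recurring differences and the smaller changes seen for most members, so they do not check such changes. No sequences are given, since those of the siRNAs and probes were not used here. Python 3.11.15, numpy 2.4.6, pandas 2.3.3, statsmodels 0.14.6 and matplotlib 3.10.9 were used.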

Additional observations from a re-analysis of the deposited data

How the results depend on the processing

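Without replicate arrays, shifts of a single probe set of over 0.45 (the scaled median absolute deviation of the differences of all probe sets) were counted as moves. Median centering, loess, quantile normalization, the floor and leaving out probe sets ending in _x_at or _s_at kept the counts of member probe sets past 1 within 1.5 times, at 2 or 3 in each direction. Under them the medians over member probe sets and genes lay between -0.07 and 0.00, and Fgf23 between 1.65 and 1.90. Centering on the hybridization controls left 0 member probe sets higher by over 1 and 63 lower, beside 0.0488% and 99.5% of all probe sets. It moved both medians to -2.77, and reversed Fgf23 to -1.06, Fgfbp1 to -1.59 and Fgfr2 at 1443211_at to -1.75. By construction it lowers all differences by the same amount. With a threshold of 0.5, 6 member probe sets were higher and 4 lower, and with one of 2, 0 were higher and 1 lower, that of Fgf4. The shares of all probe sets past these thresholds were not counted. Of the single probe sets, only Fgf4 at 1449729_at (-3.97 after quantile normalization, -4.27 with the floor) and Fgfbp1 (1.67 after quantile normalization) moved under the other scalings and the floor. By construction the floor raises the survivor signal of this Fgf4 probe set to 0.51, the 25th percentile of that array. The cause of the moves after quantile normalization was not tested. With the probe set of lowest mean signal per gene, the median over member genes was 0.27. No paired analysis was possible because each condition has 1 array. Low signals limit what these arrays can show of single members.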

Other observations

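The arrays read inserts and not transcripts, so markers of cell types could not check the cells. Over all genes, 43.5% were higher and 38.1% lower. Of 9 neural stem cell markers, 4 were up and 5 down in the survivors, at a median difference of -0.04. Only Gfap was lower by over 1, with 3.45 and 1.57, and its 3 probe sets differed by -1.89 to 0.00. Of those that were up, Hes5 was higher by 0.59 and Vim by 0.52 at the probe set of highest mean signal. Of 4 neuron markers 2 were higher and 2 lower, between -0.37 and 0.59. Of 4 measured oligodendrocyte markers 2 were higher and 2 lower. Mbp, a myelin protein, had 7.34 and 0.74 and Olig2 had 3.51 and 1.19, while Mog and Olig1 were higher by 0.42 and 0.25. Of 4 microglia markers 2 were higher and 2 lower. Csf1r had 6.35 and 0.61 and Itgam was lower by 0.23, while Aif1 and Cx3cr1 were higher by 0.79 and 0.43. Mbp had 8 probe sets with differences up to 0.48, and Csf1r had 3 with differences up to -0.19. How often other probe sets as bright on the control array were lower was not counted for these markers.

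Transcripts named after a member but not counted as one were looked at after their values were seen. Frs3os, antisense to Frs3, had 0.28 on the control array and 1.07 on the survivor array, while Frs3 itself was equal. Fgf2os, antisense to Fgf2, had 0.62 and 1.11, where Fgf2 was lower. Their differences of 0.78 and 0.49 were shared by 826 and 1195 probe sets of the array. Fgfr1op2, named as a partner of Fgfr1, had 1.26 and 1.07 at 1 probe set, a difference of -0.19, and was equal on the arrays at its other 2.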
